A study of Mus musculus with 8 samples.

Results

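The genes of cholesterol and fatty acid synthesis were followed across 4 groups of mouse embryonic stem cells. The set holds 31 genes of the 49641 entries in the deposited table. They were taken by gene symbol, each matched 1 entry, and the set does not hold every enzyme of the pathway. It has 5 regulators, 1 sterol carrier, 7 genes of the mevalonate arm, 10 of the sterol arm and 8 of the fatty acid arm. A gene was tested where its mean over the 8 libraries was at least 1 FPKM (fragments scaled for transcript length and library size), and 30 of the 31 passed. Thrsp, a small protein tied to lipogenesis, did not pass, with values from 0.35 FPKM in a WT library to 1.74 FPKM in a siMbnl1/2 library.

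RNA sequencing covered 8 libraries, 2 for each group. All carry the labels of the V6.5 stem cell line on a 129/C57BL/6 background, grown in medium with 15% serum and LIF. The plates carried gelatin or irradiated fibroblast feeders, and which of these a sample had is not given. The WT group was mock transfected. The Dgcr8 KO group lacks Dgcr8, a protein needed to make most microRNAs, and was also mock transfected. Both treated groups are Dgcr8 KO cells as well: 1 received a miR-294 mimic and the other siRNAs against Mbnl1 and Mbnl2, each at 50 nM, 16 h after plating. The table names the WT columns V65-mock and the Dgcr8 KO columns ES1-mock, so a difference between lines cannot be told apart from the loss of Dgcr8. Whether several knockout clones were used is not stated, and nothing says that the 2 libraries of a group came from separate cultures, so p-values cover no more than the spread of these samples, which may be technical.

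Cells build cholesterol and fatty acids from acetyl-CoA. The transcription factors SREBP1 and SREBP2, made by Srebf1 and Srebf2, switch on most of these enzymes when membranes are poor in sterol; SCAP escorts them out of the endoplasmic reticulum and the INSIG proteins hold them back. The mevalonate arm ends at farnesyl diphosphate, which feeds the sterol arm as well as protein prenylation. The miR-290 family, of which miR-294 is a member, holds the main microRNAs of mouse embryonic stem cells, and MBNL1 and MBNL2 are RNA-binding splicing regulators. The series asked how this family and the MBNL proteins shape splicing and gene expression.

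The mimic's sequence is shown with 2 family members because the 3 share their seed, bases 2 to 8, given in capitals (RefSeq, GRCm38.p6; miR-294 lies at chr7:3220691-3220712, plus strand).
mmu-miR-294-3p: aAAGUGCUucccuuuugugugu
mmu-miR-291a-3p: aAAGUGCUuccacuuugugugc
mmu-miR-295-3p: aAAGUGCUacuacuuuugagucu
The 7 bases that pair with this seed, AGCACTT, were looked for in the longest annotated 3′ untranslated region of each gene (GENCODE M21, transcript strand). Only genes that passed the FPKM filter were searched, which leaves out Thrsp. Of the 30 members tested, all with such a region, 3 held these bases (10%), against 2004 of the 11497 genes tested with one (17.4%). They were Stard4, Hsd17b7 and Elovl6. The shorter match of 6 bases, GCACTT, was in 10 of 30 members (33.3%) and in 32.8% of genes tested. Those in Hsd17b7 (chr1:169949984-169950012, minus strand) and Elovl6 (chr3:129635989-129636017, plus strand) are printed with the match in capitals.
Hsd17b7: agagatggctcAGCACTTaagagccccga
Elovl6: tatgcttccaaAGCACTTtagtctcagtg
A match is a description of the sequence and not evidence of a working site.

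Promoter windows from 250 bases before to 50 bases after the gene start were at hand for 25 of the 31 members (RefSeq, GRCm38.p6). The letters TCACNCCAC, a form of the sterol regulatory element bound by SREBP, were searched on both strands. They stood in 1 of the 25, Hmgcs1, and in 1.44% of the 27025 genes with a window. The letters CCAAT, the box bound by NF-Y, a factor known to act beside SREBP, stood on either strand in 20 of the 25 (80.0%), against 41.1% of all genes with a window and 43.5% of the 9251 of them that were tested. The Hmgcs1 stretch (chr13:119690184-119690252, plus strand) shows the sterol element, and those of Lss (chr10:76531525-76531565, plus strand) and Ebp (chrX:8193545-8193585, minus strand) show the box, read as ATTGG on the gene's own strand. Lss and Ebp are shown since they moved far, in opposite directions.
Hmgcs1: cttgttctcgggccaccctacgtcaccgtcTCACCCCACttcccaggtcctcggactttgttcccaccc
Lss: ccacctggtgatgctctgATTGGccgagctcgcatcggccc
Ebp: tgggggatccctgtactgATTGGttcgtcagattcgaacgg
The Lss box begins 62 bases and the Ebp box 55 bases before the gene start, and the Hmgcs1 element 137 bases before it. These distances count from the RefSeq gene start of the windows, which can differ from the start of the gene spans printed below.

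The targeted genes were checked first. Dgcr8 averaged 22.4 FPKM in WT and between 7.04 and 8.19 FPKM in the 3 groups with the knockout, so reads still fell on the gene. Mbnl2 went from 26.6 FPKM in Dgcr8 KO to 12.8 in siMbnl1/2 and Mbnl1 from 8.71 to 6.80, and only the Mbnl2 difference passed the test (adjusted p = 0.0191 and 0.158, limma). All 8 stem cell markers were at 1 FPKM or more in every library, but their levels moved with the groups: 3 were higher and 3 lower in Dgcr8 KO than in WT, and 4 were higher and 3 lower in miR-294 than in Dgcr8 KO. Nanog averaged 208 FPKM in WT, 380.1 in Dgcr8 KO, 219 in miR-294 and 415 in siMbnl1/2, and Utf1 315, 172, 289 and 157 in the same order. Feeder fibroblast markers summed to 2.07 to 4.43 FPKM, and the 6 adipocyte and hepatocyte markers to less than 1 FPKM in every library. Primitive endoderm markers summed to 65.7 FPKM in both WT libraries, with 7 of 8 at 1 FPKM or more, and to between 3.61 and 4.48 FPKM in the other 6, with 1 of 8. The endoderm markers thus differ along every comparison with WT below. Single ones, at low levels, also differed without WT. In miR-294 minus Dgcr8 KO 3 were higher and 1 lower, and in siMbnl1/2 minus miR-294 1 was higher and 2 lower. The stem cell markers differ with WT and along the comparisons with and without miR-294 as well. The part of either in the results was not tested. In bulk samples, fewer cells of a type and less RNA per cell cannot be told apart.

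Most of these genes were lower in Dgcr8 KO than in WT. Of the 30 tested, 19 were lower, 3 higher and 8 did not pass (limma, Benjamini-Hochberg adjusted p under 0.05 over all genes tested). The median difference of the members was -0.37 on the log2(FPKM + 1) scale, on which all differences below are given, against 0.00 over all genes. Many genes passed in this comparison: 59.8% of the 12786 tested, 30.1% lower and 29.6% higher. The members' share was 63.3% lower and 10% higher. WT had the highest mean of the 4 groups for 24 of the 30 members tested (80.0%), against 34.1% of all genes tested. For 20 of them (66.7%) both WT libraries lay above the other 6, against 23.6% of all genes. Without WT replicate 1 fewer members were called, and so were fewer of all genes tested. The calls of 13 members held under all 16 alternatives tried: Stard4, Acat2, Mvd, Fdps, Sqle, Lss, Msmo1, Nsdhl, Ebp, Acaca, Fasn, Scd1 and Elovl6.

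**Figure D1:**
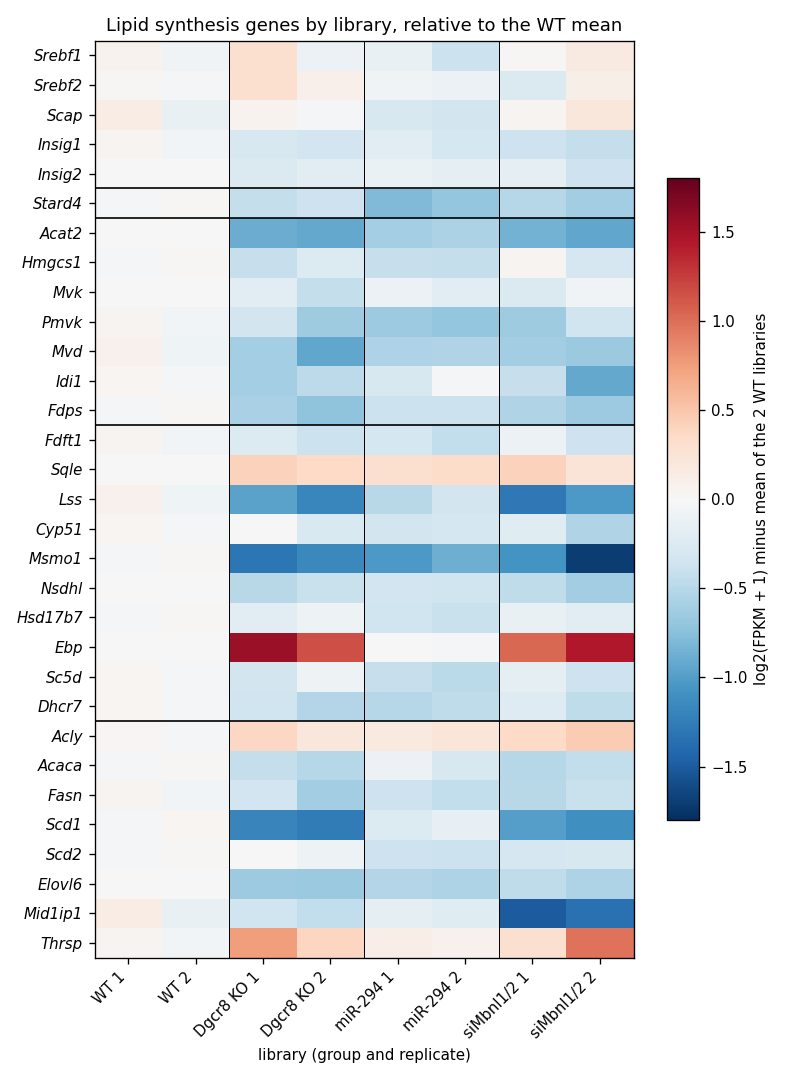
Each row is 1 of the 31 genes and each column 1 library; colour gives log2(FPKM + 1) minus the mean of the 2 WT libraries, blue lower and red higher. Black lines part the role groups (regulators, sterol carrier, mevalonate arm, sterol arm, fatty acid arm). Most rows are blue outside WT, while Ebp is red in Dgcr8 KO and siMbnl1/2 and near white in miR-294.

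All 7 genes of the mevalonate arm were lower in Dgcr8 KO than in WT, with a median difference of -0.54. Acat2, the thiolase that joins 2 acetyl-CoA, stood at 33.0 and 33.6 FPKM in WT, 17.5 and 17.1 in Dgcr8 KO, 21.5 and 22.1 in miR-294, and 17.99 and 17.00 in siMbnl1/2. The groups were separate except that Dgcr8 KO and siMbnl1/2 overlapped. It fell by 0.91 ± 0.068 (SE) in Dgcr8 KO (adjusted p = 3.48e-05). Mvd, the decarboxylase that makes isopentenyl diphosphate, was at 27.0 and 24.1 FPKM in WT and 16.3 and 12.9 in Dgcr8 KO, with 17.1 and 17.2 in miR-294 and 16.1 and 15.7 in siMbnl1/2. Both WT libraries were the highest, and the siMbnl1/2 pair lay between the Dgcr8 KO replicates. It fell by 0.77 ± 0.11 (adjusted p = 0.000717). Fdps, which makes farnesyl diphosphate, stood at 71.0 and 73.2 FPKM in WT, 47.8 and 43.4 in Dgcr8 KO, 55.1 and 54.7 in miR-294 and 49.0 and 45.5 in siMbnl1/2. WT was highest and miR-294 next, with no overlap between them and the rest, and the fall in Dgcr8 KO was 0.65 ± 0.073 (adjusted p = 0.000214).

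Idi1, the isomerase between both isoprenoid units, was at 29.9 and 28.2 FPKM in WT and 18.7 and 20.8 in Dgcr8 KO, with 23.7 and 28.4 in miR-294 and 21.6 and 14.9 in siMbnl1/2. Replicate 2 of miR-294 reached the WT level, and the siMbnl1/2 pair spanned that of Dgcr8 KO. It fell by 0.54 ± 0.16 in Dgcr8 KO (adjusted p = 0.0233). The mevalonate kinases and the synthase showed the smallest falls: 0.49 for Pmvk, 0.33 for Hmgcs1 and 0.31 for Mvk. These 4 calls did not hold under every alternative. Hmgcs1 was lost under 11 of the 16, among them both other scalings, a plain variance, a replicate block and no filter, with a difference of -0.17 at the smallest. Mvk was lost under 7, the block and no filter among them, Idi1 under 6, with quantile normalization and no filter, and Pmvk under 2. Of single libraries left out, Idi1 was lost without any 1 of the WT and Dgcr8 KO libraries, Hmgcs1 also without either miR-294 library, Mvk without either WT library, Dgcr8 KO replicate 2 or either miR-294 library, and Pmvk when WT replicate 1 or the second Dgcr8 KO library was left out. The highest adjusted p under any alternative was 0.113 for Idi1, 0.329 for Hmgcs1, 0.183 for Mvk and 0.0715 for Pmvk.

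The sterol arm was split. Of its 10 genes, 5 were lower in Dgcr8 KO, 2 higher and 3 did not pass. Msmo1, the methylsterol oxidase (ENSMUSG00000031604, chr8:64718139-64733792), stood at 44.7 and 46.2 FPKM in WT, 17.8 and 19.8 in Dgcr8 KO, 21.7 and 24.4 in miR-294 and 21.1 and 13.2 in siMbnl1/2. WT was above all other libraries, and the siMbnl1/2 pair spanned the Dgcr8 KO pair. It fell by 1.23 ± 0.18 (adjusted p = 0.000871), from a mean of 45.4 to 18.8 FPKM. Lss, lanosterol synthase (chr10:76531588-76557138), was at 19.7 and 17.7 FPKM in WT, 9.10 and 7.72 in Dgcr8 KO, 12.9 and 14.6 in miR-294 and 7.03 and 8.57 in siMbnl1/2. WT, miR-294 and the other 4 libraries formed 3 levels with no overlap, and the fall in Dgcr8 KO was 1.07 ± 0.12 (adjusted p = 0.000254).

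Nsdhl, a decarboxylating sterol dehydrogenase, was at 10.8 and 10.7 FPKM in WT, 7.31 and 7.85 in Dgcr8 KO, 8.25 and 8.17 in miR-294 and 7.51 and 6.603 in siMbnl1/2. WT was highest and miR-294 next, with no overlap. In Dgcr8 KO it fell by 0.45 ± 0.089 (adjusted p = 0.00333). Dhcr7, the reductase of a last step to cholesterol, fell by 0.45 ± 0.10 (adjusted p = 0.00737). Fdft1, squalene synthase, fell by 0.32 ± 0.11 (adjusted p = 0.0349). The Dhcr7 call was lost without WT replicate 1 (adjusted p = 0.0528), and the Fdft1 call with no filter and without either WT library, Dgcr8 KO replicate 2 or either miR-294 library (adjusted p up to 0.164). The demethylase Cyp51 (-0.13), the keto-reductase Hsd17b7 (-0.13) and the desaturase Sc5d (-0.20) did not pass.

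Ebp and Sqle went the other way. Ebp, the sterol isomerase that moves a double bond late in the pathway (ENSMUSG00000031168, chrX:8185329-8193512), stood at 16.9 and 16.6 FPKM in WT, 51.0 and 38.8 in Dgcr8 KO, 16.8 and 16.4 in miR-294 and 35.4 and 47.1 in siMbnl1/2. The 4 libraries of WT and miR-294 lay within 1 FPKM of each other, and all 4 of Dgcr8 KO and siMbnl1/2 were far above them. It rose 2.68-fold in mean FPKM in Dgcr8 KO, a difference of 1.36 ± 0.16 (adjusted p = 0.000245). Sqle, squalene epoxidase, was at 24.0 FPKM in both WT libraries and at 32.3 and 31.03 in Dgcr8 KO, 29.4 and 30.6 in miR-294 and 32.4 and 28.2 in siMbnl1/2. Every library outside WT was higher, and the rise in Dgcr8 KO was 0.39 ± 0.081 (adjusted p = 0.00444).

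In the fatty acid arm 5 of the 7 tested genes were lower in Dgcr8 KO and 1 was higher. Scd1, a desaturase that makes monounsaturated fatty acids (ENSMUSG00000037071, chr19:44394451-44407709), stood at 9.79 and 10.3 FPKM in WT, 3.84 and 3.61 in Dgcr8 KO, 8.30 and 8.96 in miR-294 and 4.53 and 4.11 in siMbnl1/2. WT and miR-294 formed a high set and the other 4 libraries a low one. Scd1 fell by 1.22 ± 0.092 (adjusted p = 3.69e-05). Its paralog Scd2, at 38.3 and 39.3 FPKM in WT and 38.6 and 36.3 in Dgcr8 KO, overlapped between these groups and differed by -0.05 ± 0.064 (adjusted p = 0.522). Elovl6, the elongase of saturated fatty acids, was at 53.2 and 54.1 FPKM in WT, 33.6 and 33.5 in Dgcr8 KO, 36.9 and 36.3 in miR-294 and 38.8 and 36.2 in siMbnl1/2. The WT libraries stood apart above the other 6, and the fall in Dgcr8 KO was 0.66 ± 0.064 (adjusted p = 0.00011).

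Fasn, fatty acid synthase, was at 70.9 and 65.5 FPKM in WT, 53.4 and 44.0 in Dgcr8 KO, 52.3 and 49.9 in miR-294 and 48.1 and 51.1 in siMbnl1/2. WT stood above the rest, which overlapped, and the fall in Dgcr8 KO was 0.48 ± 0.099 (adjusted p = 0.00413). Acaca, the acetyl-CoA carboxylase upstream of it, was at 20.1 and 20.9 FPKM in WT, 15.0 and 14.1 in Dgcr8 KO, 19.0 and 16.6 in miR-294 and 14.1 and 14.9 in siMbnl1/2. WT was highest, miR-294 next and the other 4 libraries overlapped at the bottom. Acaca fell by 0.47 ± 0.087 in Dgcr8 KO (adjusted p = 0.00252). Mid1ip1, which promotes the assembly of acetyl-CoA carboxylase, fell by 0.40 ± 0.11 (adjusted p = 0.0141), which no longer passed when WT replicate 1 or the second Dgcr8 KO library was left out (adjusted p up to 0.115). Acly, the citrate lyase that supplies cytosolic acetyl-CoA, was at 102.2 and 98.1 FPKM in WT, 130.0 and 115.1 in Dgcr8 KO, 113.6 and 116.6 in miR-294 and 129.2 and 137.3 in siMbnl1/2. All 6 libraries outside WT were higher. It rose by 0.29 ± 0.075 in Dgcr8 KO (adjusted p = 0.0123), but not when WT replicate 2 was left out (adjusted p = 0.0855).

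Of the 5 regulators 1 passed between Dgcr8 KO and WT. This was Insig1, itself a classic SREBP target, at 23.7 and 22.2 FPKM in WT, 18.5 and 17.9 in Dgcr8 KO, 19.7 and 18.2 in miR-294 and 17.5 and 16.9 in siMbnl1/2. Both WT libraries were above the other 6. It fell by 0.32 ± 0.076 in Dgcr8 KO (adjusted p = 0.00827), but not when WT replicate 1 was left out (adjusted p = 0.0754). Srebf2 was at 38.0 and 36.9 FPKM in WT and 45.9 and 40.0 in Dgcr8 KO, with 35.9 and 34.6 in miR-294 and 31.1 and 40.2 in siMbnl1/2. The siMbnl1/2 pair spread across the WT pair, and the difference between Dgcr8 KO and WT, 0.19 ± 0.12, did not pass (adjusted p = 0.218). Srebf1 was at 14.8 and 13.6 FPKM in WT, 17.6 and 13.1 in Dgcr8 KO, 12.8 and 10.6 in miR-294 and 14.3 and 16.0 in siMbnl1/2. Its Dgcr8 KO libraries overlapped WT (0.09 ± 0.15, adjusted p = 0.617).

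Scap was at 14.1 and 11.6 FPKM in WT, 13.4 and 12.7 in Dgcr8 KO, 10.3 and 9.96 in miR-294 and 13.3 and 14.9 in siMbnl1/2. The miR-294 pair was the lowest and the other groups overlapped. Insig2 was at 12.8 and 13.1 FPKM in WT, 10.7 and 11.2 in Dgcr8 KO, 11.8 and 11.3 in miR-294 and 11.4 and 9.81 in siMbnl1/2. WT was highest in both libraries, but the difference of -0.22 ± 0.089 between Dgcr8 KO and WT missed the threshold (adjusted p = 0.061). Stard4, which carries cholesterol between membranes, was at 8.49 and 8.69 FPKM in WT, 6.11 and 6.42 in Dgcr8 KO, 4.54 and 4.89 in miR-294 and 5.70 and 5.22 in siMbnl1/2. The 4 groups did not overlap, in the order WT, Dgcr8 KO, siMbnl1/2, miR-294. It fell by 0.40 ± 0.089 in Dgcr8 KO (adjusted p = 0.00606).

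**Figure D2:**
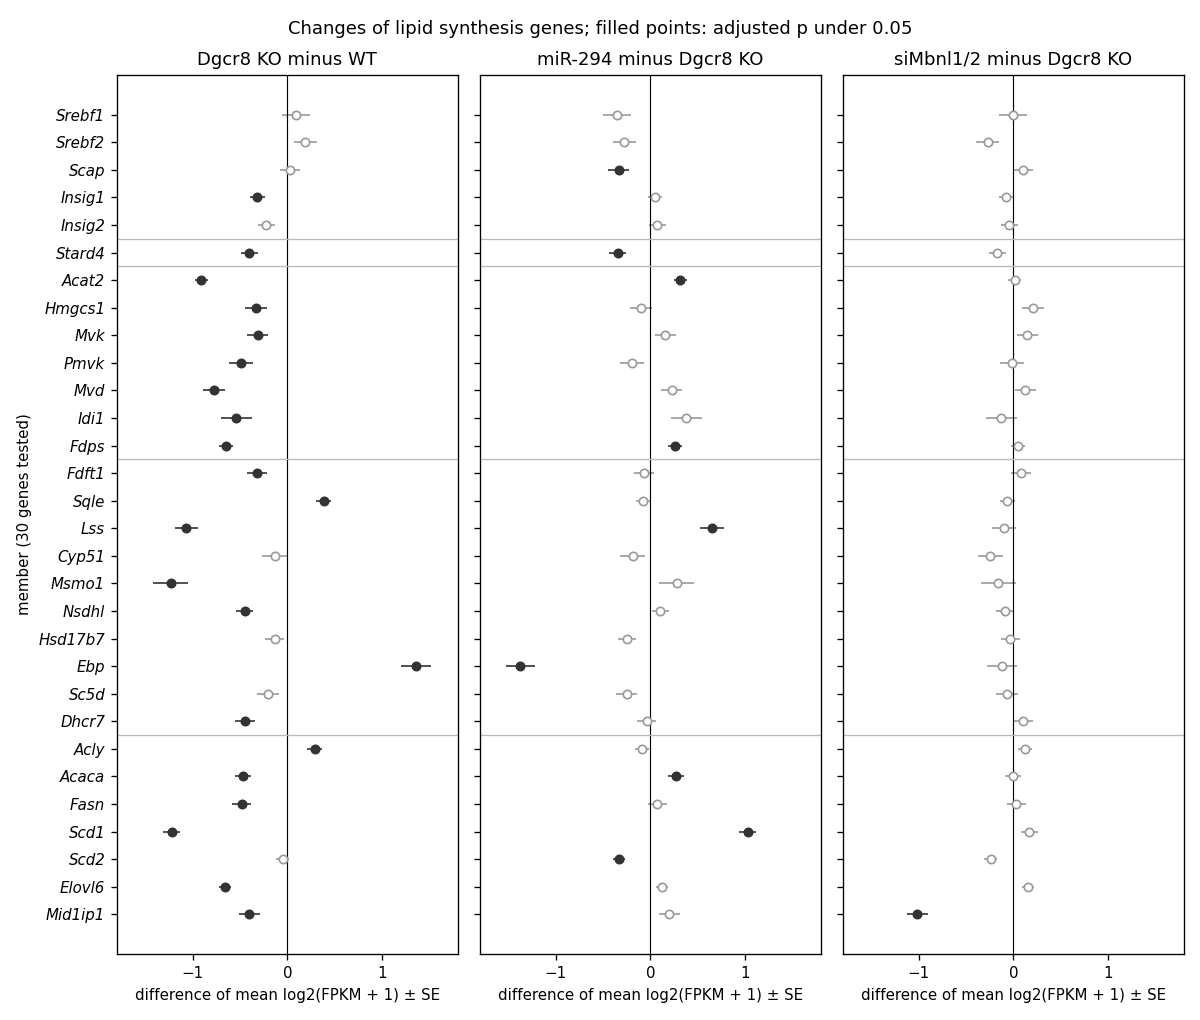
Difference of group means of log2(FPKM + 1) with its SE for the 30 genes tested, in 3 comparisons; filled points passed at an adjusted p under 0.05. In Dgcr8 KO minus WT 22 points are filled, most of them left of 0; in miR-294 minus Dgcr8 KO 9 are filled, on both sides; in siMbnl1/2 minus Dgcr8 KO only Mid1ip1 is.

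Adding miR-294 to the knockout cells changed 9 of the 30 genes: 5 were higher than in Dgcr8 KO, 4 lower and 21 did not pass. The members' median difference was 0.01, against -0.06 over all genes. Here 52.2% of all genes passed, 22.9% higher and 29.2% lower, so the members' share of 30% was below that of the table. Under quantile normalization the members' split was 8 higher and 4 lower. The count fell without miR-294 replicate 1, as did that of all genes tested. This comparison and Dgcr8 KO minus WT share the Dgcr8 KO libraries, so the values are given by level below and no overlap is drawn between them.

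Scd1, Lss, Acat2, Fdps and Acaca were higher with miR-294. Scd1 rose by 1.03 ± 0.092 (adjusted p = 0.000147), from a mean of 3.73 to 8.63 FPKM, and Lss by 0.65 ± 0.12 (adjusted p = 0.00365), from 8.41 to 13.8 FPKM. In the fit against WT, Scd1 with miR-294 differed by -0.20 ± 0.092 (adjusted p = 0.158) and Lss by -0.41 ± 0.12 (adjusted p = 0.0455). The Lss difference from WT was lost without any 1 of the WT or miR-294 libraries. It was also lost with no filter, quantile normalization, a plain variance and a replicate block. Acat2 rose by 0.32 ± 0.068 (adjusted p = 0.00602), from 17.3 to 21.8 FPKM, and stayed under the 33.3 FPKM of WT. The Acat2 call was lost without miR-294 replicate 2 (adjusted p = 0.0538). Fdps rose by 0.26 ± 0.073 (adjusted p = 0.0188), and Acaca by 0.27 ± 0.087 (adjusted p = 0.033). The Fdps call was lost without the second Dgcr8 KO or either miR-294 library, and under quantile normalization (adjusted p up to 0.0958). The Acaca call was lost without any 1 library of WT or Dgcr8 KO, and without miR-294 replicate 1. It was also lost with no filter, with a replicate block and with only the 4 libraries compared.

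Ebp fell by 1.37 ± 0.16 with miR-294 (adjusted p = 0.000373), from a mean of 44.9 to 16.6 FPKM. Against WT the difference was -0.02 ± 0.16 (adjusted p = 0.955). Its 3′ untranslated region of 281 bases held neither the 7-base nor the 6-base match to the miR-294 seed. Scd2 was at 29.8 and 29.5 FPKM with miR-294, below both Dgcr8 KO libraries. It fell by 0.33 ± 0.064 (adjusted p = 0.00423), while its paralog Scd1 rose. Stard4, with 1 match of 7 bases, fell by 0.35 ± 0.089 (adjusted p = 0.0139), but did not pass when the second Dgcr8 KO or the first miR-294 library was left out (adjusted p up to 0.0962) or under quantile normalization (adjusted p = 0.279). Scap fell by 0.34 ± 0.11 (adjusted p = 0.032, limma), but did not pass when any 1 of the Dgcr8 KO or miR-294 libraries was left out. It also did not pass with no filter, with a replicate block or under quantile normalization (adjusted p = 0.174). The other members with the 7-base match did not pass: Hsd17b7 differed by -0.25 ± 0.096 (adjusted p = 0.0656) and Elovl6 by 0.12 ± 0.064 (adjusted p = 0.15). Srebf1 and Srebf2 differed by -0.35 and -0.27 and did not pass.

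Between miR-294 and WT, 18 members passed, 17 lower and 1 higher (Sqle). Over all genes 26.5% passed, 14.7% lower and 11.8% higher, and the members' median was -0.36 against -0.05. Msmo1 was lower by -0.95 ± 0.18 (adjusted p = 0.00912), Stard4 by -0.75 ± 0.089 (adjusted p = 0.00134) and Acat2 by -0.59 ± 0.068 (adjusted p = 0.00112). miR-294 had the lowest mean of the 4 groups for 12 of the 30 members tested (40.0%, against 27.8% of all genes), and for 8 of them (26.7%, against 16.5%) both its libraries were below the other 6. Leaving out 1 WT or miR-294 library lost most of the 18 calls, and fewer of all genes tested passed as well. The calls of Stard4, Acat2 and Elovl6 held under all 16 alternatives. Msmo1 was lost without either WT library or miR-294 replicate 1 (adjusted p up to 0.0695).

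**Figure D3:**
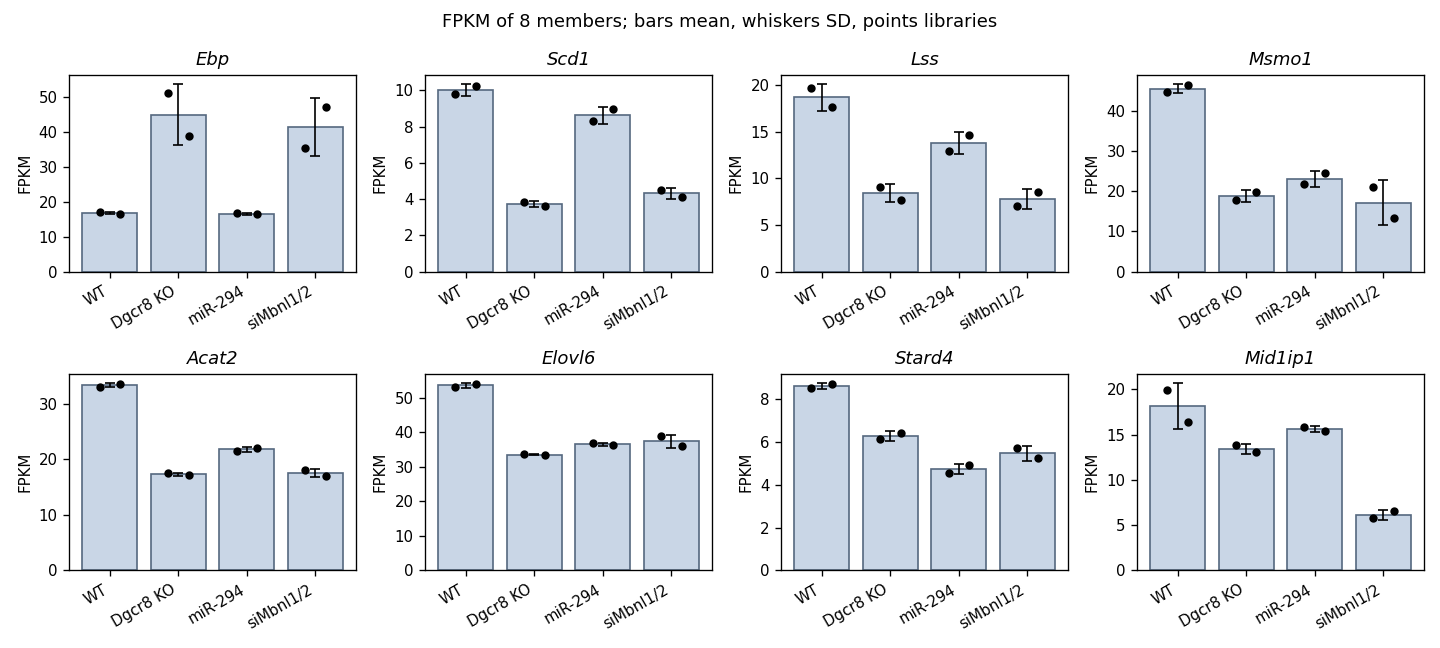
FPKM of 8 members in each group; bars are means of 2 libraries, whiskers the SD and points the libraries. Ebp, Scd1 and Lss have miR-294 levels nearer to WT than to Dgcr8 KO, Msmo1 and Elovl6 stay low in all 3 knockout groups, and Mid1ip1 is lowest in siMbnl1/2.

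With siRNAs against Mbnl1 and Mbnl2, 1 member passed against Dgcr8 KO, in a fit that pools the spread of all 4 groups. Mid1ip1 (ENSMUSG00000008035, chrX:10715013-10719690) was at 19.9 and 16.3 FPKM in WT, 13.8 and 13.1 in Dgcr8 KO, 15.8 and 15.4 in miR-294 and 5.78 and 6.55 in siMbnl1/2. Both siMbnl1/2 libraries were below all others. It fell by 1.01 ± 0.11 against Dgcr8 KO (adjusted p = 0.0144), from a mean of 13.4 to 6.16 FPKM. It no longer passed when the first (adjusted p = 0.0509) or the second Dgcr8 KO library (adjusted p = 0.0757) was left out, or with only the 4 libraries compared (adjusted p = 0.0972). Over all genes 1.11% passed in this comparison, 0.868% higher and 0.242% lower, and 3 members had an unadjusted p under 0.05. Under median-of-ratios scaling the genes called were 92 higher and 112 lower, against 111 and 31 as reported. The next differences were those of Srebf2 (-0.27), Cyp51 (-0.24) and Scd2 (-0.24), which did not pass. The members' median was -0.02, against 0.04 over all genes.

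Both treated groups were also compared with each other. With siMbnl1/2, 3 members were higher than with miR-294 (Ebp, Scap and Acly) and 7 were lower (Acat2, Idi1, Fdps, Lss, Acaca, Scd1 and Mid1ip1). Over all genes 54.0% passed, 33.0% higher and 21.0% lower, against 33.3% of the members. Ebp differed by 1.25 ± 0.16 (adjusted p = 0.00052), Mid1ip1 by -1.21 ± 0.11 (adjusted p = 0.000124), Scd1 by -0.86 ± 0.092 (adjusted p = 0.000268) and Lss by -0.75 ± 0.12 (adjusted p = 0.00184). These 4 calls held under all 16 alternatives. Of the others, each was lost without at least 1 library. Those of Scap, Acat2, Idi1, Fdps and Acly were lost without miR-294 replicate 2. The count also fell without either WT library, as did that of all genes tested. The median of all genes was 0.10 here and -0.01 under median-of-ratios scaling, where the members split 2 higher and 10 lower and all genes 3362 higher and 3545 lower, against 4217 and 2685 as reported. This comparison shares no library with Dgcr8 KO minus WT. Of the 30 members tested, 7 were lower in both (23.3%), against 16.7% of all genes, and 2 were higher in both (6.67%), against 22.3%. In opposite directions 0 members and 1.97% of all genes passed.

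Between siMbnl1/2 and WT, 22 members passed, 19 lower and 3 higher (Ebp, Sqle and Acly), with a median of -0.39 against 0.04 over all genes. Of all genes, 60.5% passed, 27.7% lower and 32.8% higher. Mid1ip1 was lower by -1.41 ± 0.11 (adjusted p = 3.73e-05), Msmo1 by -1.39 ± 0.18 (adjusted p = 0.000468) and Lss by -1.16 ± 0.12 (adjusted p = 0.000161). Of these 22 calls, 15 held under all 16 alternatives. Those of Insig2, Pmvk, Idi1, Sqle, Cyp51, Dhcr7 and Scd2 did not. Insig2 (-0.27) and Cyp51 (-0.38) were lost without any 1 of the WT or miR-294 libraries or siMbnl1/2 replicate 2. Both were also lost with no filter and with only the libraries compared. Sqle was lost without either WT library.

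Genes around the pathway that are not among the 31 were read from 6 lists of 61 genes, of which 58 were tested. In Dgcr8 KO minus WT, 26 were higher, 9 lower and 23 did not pass, with a median of 0.17. The share that passed, 60.3%, was that of the whole table (59.8%). By direction, 44.8% were higher and 15.5% lower, against 29.6% and 30.1% of all genes. In miR-294 minus Dgcr8 KO, 4 were higher and 26 lower, or 51.7% against 52.2% of all genes, with a median of -0.24. The count of 30 fell without 1 of the miR-294 libraries, as did that of all genes tested. In siMbnl1/2 minus Dgcr8 KO, 0 passed, against 1.11% of all genes. In siMbnl1/2 minus miR-294, 28 were higher and 5 lower, or 56.9% against 54.0% of all genes; the split was 23 and 8 under median-of-ratios scaling. The counts by list that follow rest on this background.

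Among those that supply acetyl-CoA, NADPH and activated fatty acids, 11 of 20 were higher in Dgcr8 KO and 3 lower. Acss2, which makes acetyl-CoA from acetate, stood at 1.95 and 2.39 FPKM in WT, 12.0 and 9.78 in Dgcr8 KO, 3.84 and 3.76 in miR-294 and 9.60 and 12.0 in siMbnl1/2. It was high in both knockout groups without the mimic and low in WT and miR-294. The rise in Dgcr8 KO was 1.91 ± 0.14 (adjusted p = 3.41e-05, limma). Acsl5, an acyl-CoA synthetase, was at 3.94 and 4.23 FPKM in WT, 15.0 and 15.7 in Dgcr8 KO, 5.003 and 4.76 in miR-294 and 12.1 and 11.9 in siMbnl1/2. It showed the same order of high and low groups, and rose by 1.69 ± 0.082 (adjusted p = 7.6e-06). Both fell with miR-294, by 1.30 and 1.48.

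Of the 8 tested genes of carbohydrate response and fatty acid oxidation, 5 were higher in Dgcr8 KO and 2 lower. Cpt1a, which brings fatty acids into mitochondria, was at 13.2 and 14.2 FPKM in WT, 34.3 and 30.7 in Dgcr8 KO, 8.495 and 8.13 in miR-294 and 30.7 and 39.8 in siMbnl1/2. Its miR-294 libraries were the lowest of the 8, and it fell by 1.85 ± 0.12 with the mimic (adjusted p = 5.88e-05).

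Of the 9 genes of SREBP processing and INSIG turnover, 2 were higher and 1 lower in Dgcr8 KO. Erlin1, part of the complex that handles INSIG degradation in the endoplasmic reticulum, was at 10.6 and 10.2 FPKM in WT, 34.4 and 33.0 in Dgcr8 KO, 12.5 and 12.1 in miR-294 and 25.4 and 34.2 in siMbnl1/2. It was high in every library of Dgcr8 KO and siMbnl1/2, rose by 1.60 ± 0.13 in Dgcr8 KO (adjusted p = 4.62e-05) and fell by 1.38 ± 0.13 with miR-294 (adjusted p = 0.000163). Ube2g2, a ubiquitin-conjugating enzyme of that route, fell by 0.81 ± 0.12 in Dgcr8 KO (adjusted p = 0.000797). Of the 6 liver X receptor and efflux genes tested, 3 were higher and 1 lower; Mylip, the ligase that degrades lipoprotein receptors, rose by 1.41 ± 0.14 (adjusted p = 0.000119). Of the 6 uptake and trafficking genes, 3 were higher and 1 lower, and the lipoprotein receptor Scarb1 rose by 1.00 ± 0.23 (adjusted p = 0.00765). The 9 isoprenoid genes gave 2 higher and 1 lower, with the farnesyltransferase subunit Fntb rising by 0.84 ± 0.080 (adjusted p = 9.8e-05).

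**Figure D4:**
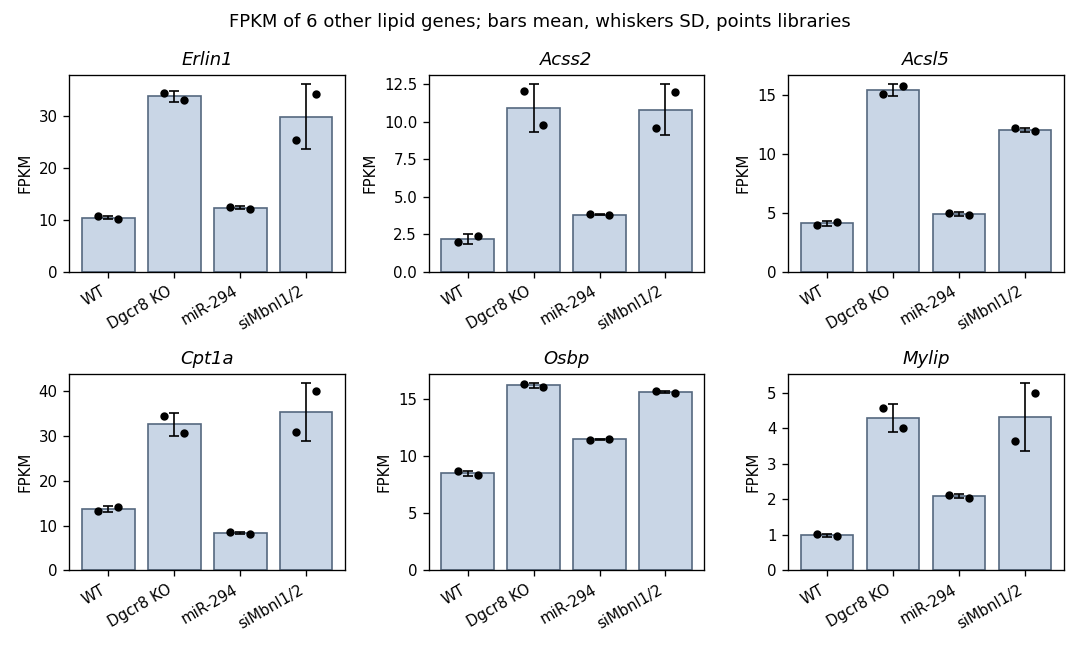
FPKM of 6 genes from the surrounding lists by group; bars are means of 2 libraries, whiskers the SD and points the libraries. All 6 are higher in Dgcr8 KO and siMbnl1/2 than in miR-294 and WT.

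The 7-base seed match was in 14 of the 58 surrounding genes (24.1%), against 17.4% of all genes tested. The regions searched were longer in the surrounding genes, with a median of 1484 bases against 1125. The match is printed for 2 surrounding genes that fell far with miR-294, chosen after their values were seen: Erlin1 (chr19:44035106-44035134, minus strand) and Cpt1a (chr19:3384551-3384579, plus strand).
Erlin1: agattaaagaaAGCACTTccacttgagct
Cpt1a: gtccctaagtaAGCACTTcccccacccta
Acss2, Acsl5 and Mylip, which also fell with miR-294, had 0 matches of 7 or 6 bases in their 3′ untranslated regions.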

How the data were processed

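Polyadenylated RNA (total RNA in the series' design) was sequenced from 8 libraries by a dUTP protocol, per the labels' protocols. The authors deposited FPKM per gene; STAR 2.5.0, Cufflinks 2.2.1 and the build mm10 are named in the submitters' processing notes. Counts cannot be recovered from FPKM, so depth is unknown and no counting interval is given; short genes and abundant transcripts affect FPKM. FPKM per library summed to between 473746 and 571508.

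Values were analysed as log2(FPKM + 1), which understates changes of low genes. The 12786 genes whose mean reached 1 FPKM were fitted with 4 group means over all 8 libraries by limma 3.58.1 (R 4.3.3, trended and robust variance, statmod 1.5.0). Tests were two-sided, with Benjamini-Hochberg adjustment over all genes tested, in 6 comparisons. The code was tested on simulated data. Alternatives were a pseudocount of 0.1, no filter, a minimum mean of 5 FPKM, 2 other scalings, a plain variance, a replicate block, only the compared libraries, and leaving out each library.

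The members, lists and sequence searches were chosen with earlier results of these data known. Every member could be named; values per library go to the called members with the largest difference in each role group (up to 4) and to the regulators. Sqle, Acly and Scd2 were added after their values were seen, the first 2 as further members higher in Dgcr8 KO and Scd2 as the paralog of Scd1. Of the surrounding genes, at most 2 called ones are named per list and comparison. Gene spans are 1-based mm10 positions from the deposited table, whose starts are 1 lower than in GENCODE M21 for 43729 of 43792 entries of the same identifier version. Sterol genes outside the list are not analysed here. One gene of the surrounding lists is counted but not reported by name here.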

Additional observations from a re-analysis of the deposited data

How the results depend on the processing

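Of 2874 member values recomputed under an alternative, 2615 kept their call, 201 lost it, 58 gained one and 0 reversed. Members called ranged, on leaving out 1 library at a time, from 14 to 23 in Dgcr8 KO minus WT, from 5 to 13 in miR-294 minus Dgcr8 KO, from 0 to 2 in siMbnl1/2 minus Dgcr8 KO, from 5 to 11 in siMbnl1/2 minus miR-294 and from 4 to 19 in miR-294 minus WT. Surrounding lipid genes called ranged from 18 to 36 in miR-294 minus Dgcr8 KO, from 0 to 3 in siMbnl1/2 minus Dgcr8 KO and from 4 to 28 in miR-294 minus WT. Where an arm kept 1 library, it was assumed to vary like the other groups. The number of all genes called also moved on leaving out 1 library, so these ranges do not concern the lipid genes alone. With no filter, the members called were 6 in siMbnl1/2 minus miR-294 and 10 in miR-294 minus WT. Of the 28009 genes then tested, 25.2% and 10.1% passed, against 54.0% and 26.5% of those in the main fit. With only the libraries compared, the members called were 0 in siMbnl1/2 minus Dgcr8 KO and 6 in siMbnl1/2 minus miR-294. The surrounding genes called in miR-294 minus WT were 40. Of all genes, 0.0313%, 45.9% and 49.4% passed in these comparisons, in the same order. Surrounding genes called in siMbnl1/2 minus Dgcr8 KO were 1 under median-of-ratios scaling and 1 under quantile normalization, against 1.6% of all genes under each. Causes of these moves were not tested. No label ties a replicate number to a day or batch. Deviations of same-numbered libraries correlated at -0.049 to 0.191 over the 6 pairs of groups, which cannot exclude a shared batch. Whether the numbers pair the samples is therefore unknown. With the replicate block the members called were 20 in Dgcr8 KO minus WT, and 7 and 1 for miR-294 and siMbnl1/2 each minus Dgcr8 KO. They were 13 and 22 for the same groups minus WT, and 6 in siMbnl1/2 minus miR-294. Of all genes, 55.9%, 47.6%, 0.258%, 20.4%, 56.7% and 49.3% passed with the block, in the same order. Depth is unknown, so what it limits cannot be given.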

Other observations

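Summed over its 7 genes, the mevalonate arm held 255 and 253 FPKM in the WT libraries, 172 and 166 in Dgcr8 KO, 186 and 189 in miR-294 and 189 and 169 in siMbnl1/2. Both WT sums were above the other 6, which lay close together. The sterol arm of 10 genes summed to 189 and 184 FPKM in WT, 178 and 161 in Dgcr8 KO, 142 and 146 in miR-294 and 166 and 156 in siMbnl1/2. Here miR-294 was lowest in both libraries, but this order depends on Ebp alone. Ebp held 51.0 and 38.8 FPKM of the sums in Dgcr8 KO and 35.4 and 47.1 in siMbnl1/2. In miR-294 it held 16.8 and 16.4 FPKM, so the order does not describe the rest of the arm. As a share of all FPKM in its library, the sterol arm held 0.0330% and 0.0326% in WT and 0.0354% and 0.0339% in Dgcr8 KO. By share, Dgcr8 KO thus stood above WT, and miR-294 stayed lowest (0.0263% and 0.0265%). Both orders again depend on Ebp and do not hold for the rest of the arm. Gene by gene, 5 of the 10 were lower in Dgcr8 KO than in WT and 2 higher. The mevalonate arm stayed highest in WT by share, at 0.0445% and 0.0448%, against 0.0343% and 0.0350% in Dgcr8 KO. All 31 members held 0.152% and 0.150% in WT and 0.150% and 0.145% in Dgcr8 KO.

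Among genes near the pathway, Tm7sf2, a sterol reductase outside the 31, differed by -0.72 ± 0.15 in Dgcr8 KO minus WT (adjusted p = 0.00398, limma). Osbp, an oxysterol-binding lipid transfer protein, rose by 0.85 ± 0.071 in the same comparison (adjusted p = 5.45e-05) and fell by 0.46 ± 0.071 with miR-294 (adjusted p = 0.00133).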
